A study of Mus musculus with 16 samples.

Results

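The 10 genes followed here act in fatty acid uptake and binding, and were measured in 8 mouse tissues, each in a fed and a fasting library. They are the surface receptor gene Cd36, the fatty acid transport protein genes Slc27a1, Slc27a2 and Slc27a4, the lysophospholipid transporter gene Mfsd2a, and the fatty acid binding protein genes Fabp1, Fabp2, Fabp3, Fabp4 and Fabp5. They were chosen by name, as the rows of the deposited table whose Ensembl identifier maps to these symbols, and are 10 of 55385 genes, of which 37084 had a count. Male C57BL/6 mice, acquired at 12 weeks of age, had free access to standard chow (fed) or were kept without food for 24 h (fasting), and the labels give no genotype beyond the strain for either group. Muscle, liver, white adipose tissue, brown adipose tissue, heart, spleen, kidney and lung were taken, and equal parts of the tissue of 3 mice per group were pooled before RNA was extracted. Each tissue and treatment therefore has 1 short-read RNA-Seq library, and the difference between pools of the same kind was not measured.

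Long-chain fatty acids reach cells from albumin in the blood or are released from lipoproteins at the vessel wall, and cross the plasma membrane with the help of CD36 and the SLC27 proteins. SLC27 proteins (also called FATP) are acyl-CoA synthetases as well as transporters, so that a fatty acid is trapped as its CoA ester on entry. Inside the cell, small FABP proteins carry fatty acids through the cytosol to membranes, mitochondria and the nucleus, and each FABP is named after the tissue it was first found in. Fasting is known to release fatty acids from adipose tissue and to turn liver, heart and muscle towards their oxidation. MFSD2A imports phospholipids that carry long polyunsaturated fatty acids and is best known from the blood-brain barrier.

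The upstream sequences of these genes were read from RefSeq (build GRCm38.p6), where 8 of the 10 genes were matched with 10 start sites. For Fabp4 and Fabp5 no entry was matched. Stretches of 4 genes are shown, for the gene that was called higher in fasting in all 8 tissues (Slc27a1), the gene with the widest range of changes (Mfsd2a), the liver gene with a composite receptor motif (Fabp1) and the surface receptor (Cd36). Each is the longest stretch of the 250 bases before a RefSeq start that lies outside the exons of the deposited annotation, 5′ to 3′ on the gene's strand. Capitals mark AGGTCA, the core motif of many nuclear receptors, and DR1, a pair of AGGNCA motifs 1 base apart as known for PPAR and HNF4 receptors, both read on both strands.
Slc27a1: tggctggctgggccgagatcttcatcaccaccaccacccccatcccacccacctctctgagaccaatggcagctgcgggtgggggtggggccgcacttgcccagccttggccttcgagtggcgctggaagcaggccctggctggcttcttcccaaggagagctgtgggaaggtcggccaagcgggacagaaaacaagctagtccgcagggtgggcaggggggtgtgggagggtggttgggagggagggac
Mfsd2a: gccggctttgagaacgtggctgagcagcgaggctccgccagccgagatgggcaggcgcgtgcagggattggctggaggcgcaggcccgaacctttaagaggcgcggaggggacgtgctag
Fabp1: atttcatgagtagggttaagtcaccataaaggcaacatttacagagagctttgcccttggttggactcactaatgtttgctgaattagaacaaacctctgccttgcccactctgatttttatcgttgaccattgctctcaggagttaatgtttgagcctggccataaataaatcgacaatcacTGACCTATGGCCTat
Cd36: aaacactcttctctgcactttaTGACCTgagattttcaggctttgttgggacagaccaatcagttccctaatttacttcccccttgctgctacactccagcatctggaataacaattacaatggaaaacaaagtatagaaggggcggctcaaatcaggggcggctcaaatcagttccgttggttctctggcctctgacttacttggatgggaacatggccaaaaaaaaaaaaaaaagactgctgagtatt

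The stretch of Slc27a1 is chr8:71568621-71568870 (+ strand), that of Mfsd2a chr4:122961189-122961308 (- strand), that of Fabp1 chr6:71199629-71199826 (+ strand) and that of Cd36 chr5:17835897-17836146 (- strand). DR1 matched only Fabp1 among the 10 windows of these genes, at position -67 from the RefSeq start, and its match holds an AGGTCA of its own. DR1 occurs in 0.338% of all 32851 windows of this length in the same table. AGGTCA was found before 4 of the 8 genes, at -228 in Cd36, -220 in Slc27a2, -213 in Mfsd2a and at -67 and -9 in Fabp1, and in 14% of all windows. The matches in Slc27a2 and Mfsd2a, and the one at -9 of Fabp1, lie outside the stretches shown. The palindromes of the glucocorticoid receptor (GNACA and TGTNC 3 bases apart) and of CREB (TGACGTCA) and the forkhead motif TGTTTAC had no match in the 10 windows, against 0.387%, 1.55% and 3.17% of all windows. TATAAA occurred only before Fabp1, at -30, and in 12.4% of all windows. The windows of Fabp2 (35.6% G and C, 1 CpG), Fabp1 (42.8%, 2 CpG) and Cd36 (43.2%, 3 CpG) were lower in both than the median window (52.4%, 6 CpG), and the other 7 windows were higher. A match is a description of letters and was not related to the measurements.

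The libraries held between 14245178 and 36069968 counts, so that the upper limit which a count of 0 allows, 3 counts, is between 0.0832 and 0.211 CPM (counts scaled to the same library total). In the fed libraries, summed marker genes of the labelled tissue ranged from 5054 CPM for brown adipocyte genes in brown adipose tissue to 148096 CPM for skeletal muscle fibre genes in muscle, and each of the 8 tissues had the highest sum of its own list. Some libraries also differed in genes of other cell types, and a selection of these values is given beside the results they touch. In bulk tissue, fewer cells of a type and less RNA per cell cannot be told apart.

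A gene was called in a tissue when its log2 ratio of fasting to fed CPM (with 0.01 CPM added to each) exceeded 0.5 in size and a two-sided Fisher's exact test on the 2 libraries gave p under 0.01. This compares 2 libraries and not the 2 conditions, so no p-value is given, and folds carry a 95% exact interval for counting error alone. Of the 80 pairs of gene and tissue, 24 were called higher in fasting, 8 lower and 48 neither, and in 7 both libraries held 3 counts or fewer. Liver had 4 of the 10 genes called higher and 1 lower (14.0% of all genes with a count were called there, 4.46% higher and 9.52% lower), and kidney 3 higher and 2 lower (6.69%, 2.77% higher and 3.93% lower). Heart had 4 higher and 0 lower (10.1%, 4.33% higher and 5.80% lower), and brown adipose tissue 3 higher and 1 lower (13.0%, 5.39% higher and 7.58% lower). Muscle had 2 higher and 2 lower (13.8%, 4.42% higher and 9.39% lower), and lung likewise 2 and 2 (9.18%, 2.68% higher and 6.49% lower). White adipose tissue had 3 higher and 0 lower (19.1%, 13.2% higher and 5.84% lower), and spleen 3 higher and 0 lower (3.93%, 2.31% higher and 1.62% lower). In all but white adipose tissue and spleen, more genes of the whole table were called lower than higher. Genes with few counts can hardly be called, and between 8 and 9 of the 10 genes reached 1 CPM in a tissue. Among all genes at 1 CPM or more the shares called were 24.2% in muscle, 23.2% in liver, 29.1% in white adipose tissue, 20.9% in brown adipose tissue, 16.7% in heart, 5.95% in spleen, 10.7% in kidney and 14.3% in lung. In white adipose tissue 8 of the 10 genes reached 1 CPM and 3 of these were called, a count near what the 29.1% there would give.

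**Figure D1:**
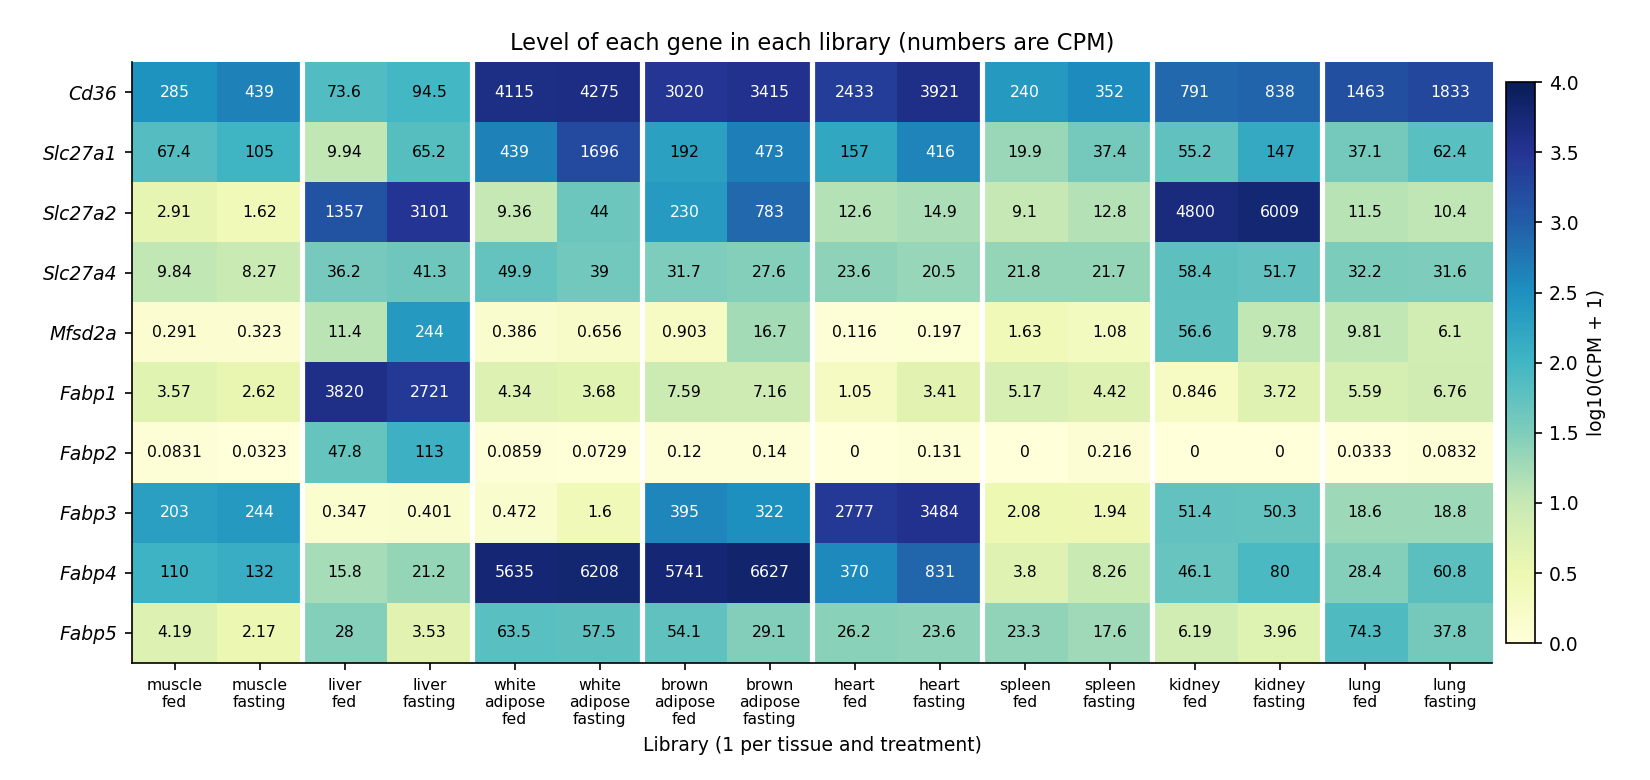
Level of the 10 genes (rows) in the 16 libraries (columns, fed and fasting side by side for each tissue), with the CPM printed in each cell and the colour on a log10(CPM + 1) scale. Slc27a2 stands out in kidney and liver (4800 and 1357 CPM fed), Fabp1 and Fabp2 in liver, Fabp3 in heart (2777 CPM fed), and Fabp4 in both adipose tissues (5635 and 5741 CPM fed).

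Cd36 (ENSMUSG00000002944.15, chr5:17781690-17888801, - strand) encodes the fatty acid translocase, a scavenger receptor of adipocytes, muscle, capillary endothelium and macrophages. It was highest in white adipose tissue, at 4115 CPM fed and 4275 CPM fasting, and in brown adipose tissue, at 3020 and 3415 CPM. Heart had 2433 CPM fed and 3921 CPM fasting, and lung 1463 and 1833 CPM. Kidney had 791 and 838 CPM and muscle 285 and 439 CPM. The order of the tissues was the same under both treatments, except that heart passed brown adipose tissue in fasting, and with 1 library each the gaps between neighbours cannot be set against a spread. Spleen had 240 CPM fed and 352 CPM fasting, and liver, the lowest, 73.6 and 94.5 CPM.

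Cd36 was called higher in fasting in 3 tissues, namely heart (1.61-fold, 95% counting interval 1.59 to 1.63), muscle (1.54-fold, 1.5 to 1.59) and spleen (1.46-fold, 1.41 to 1.51). None of these 3 calls was made by an exact test that assumed a coefficient of variation of 0.2 between pools. The value common to all genes in the fit over tissues was 0.219, but it describes disagreement between tissues and not between pools. The log2 ratio was 0.36 in liver, 0.32 in lung, 0.18 in brown adipose tissue and 0.08 in kidney, none of them called. In white adipose tissue the ratio was near 0 and its sign depended on the scaling, with a log2 value of 0.05 on library totals, -0.05 with TMM factors and -0.06 with DESeq2 size factors. Those scalings move all genes of white adipose tissue by -0.11 and -0.12 and all genes of liver by 0.12, and those of the other 6 tissues by between -0.02 and 0.08. Summed endothelial markers, a cell type that holds Cd36, went from 1212 to 998 CPM in heart and from 339 to 272 CPM in muscle, each with 0 of 8 genes called higher and 2 called lower. Of the cardiomyocyte markers in heart, Actc1 went from 10124 to 5489 CPM and Myl7 from 14.5 to 0.918 CPM. Myh6 had 30767 CPM fed and 31097 CPM fasting, Tnnt2 5362 and 5542 CPM, and Mybpc3 4221 and 3646 CPM. The part of these markers in the heart values of Cd36, Slc27a1, Fabp1, Fabp3 and Fabp4 was not tested. In spleen, macrophage markers went from 1590 to 2078 CPM (2 of 8 called higher), erythroid markers from 2961 to 7057 CPM (4 of 4 called higher) and pancreatic acinar markers from 519 to 11.6 CPM (8 of 8 called lower), and their part in the spleen values was not tested.

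**Figure D2:**
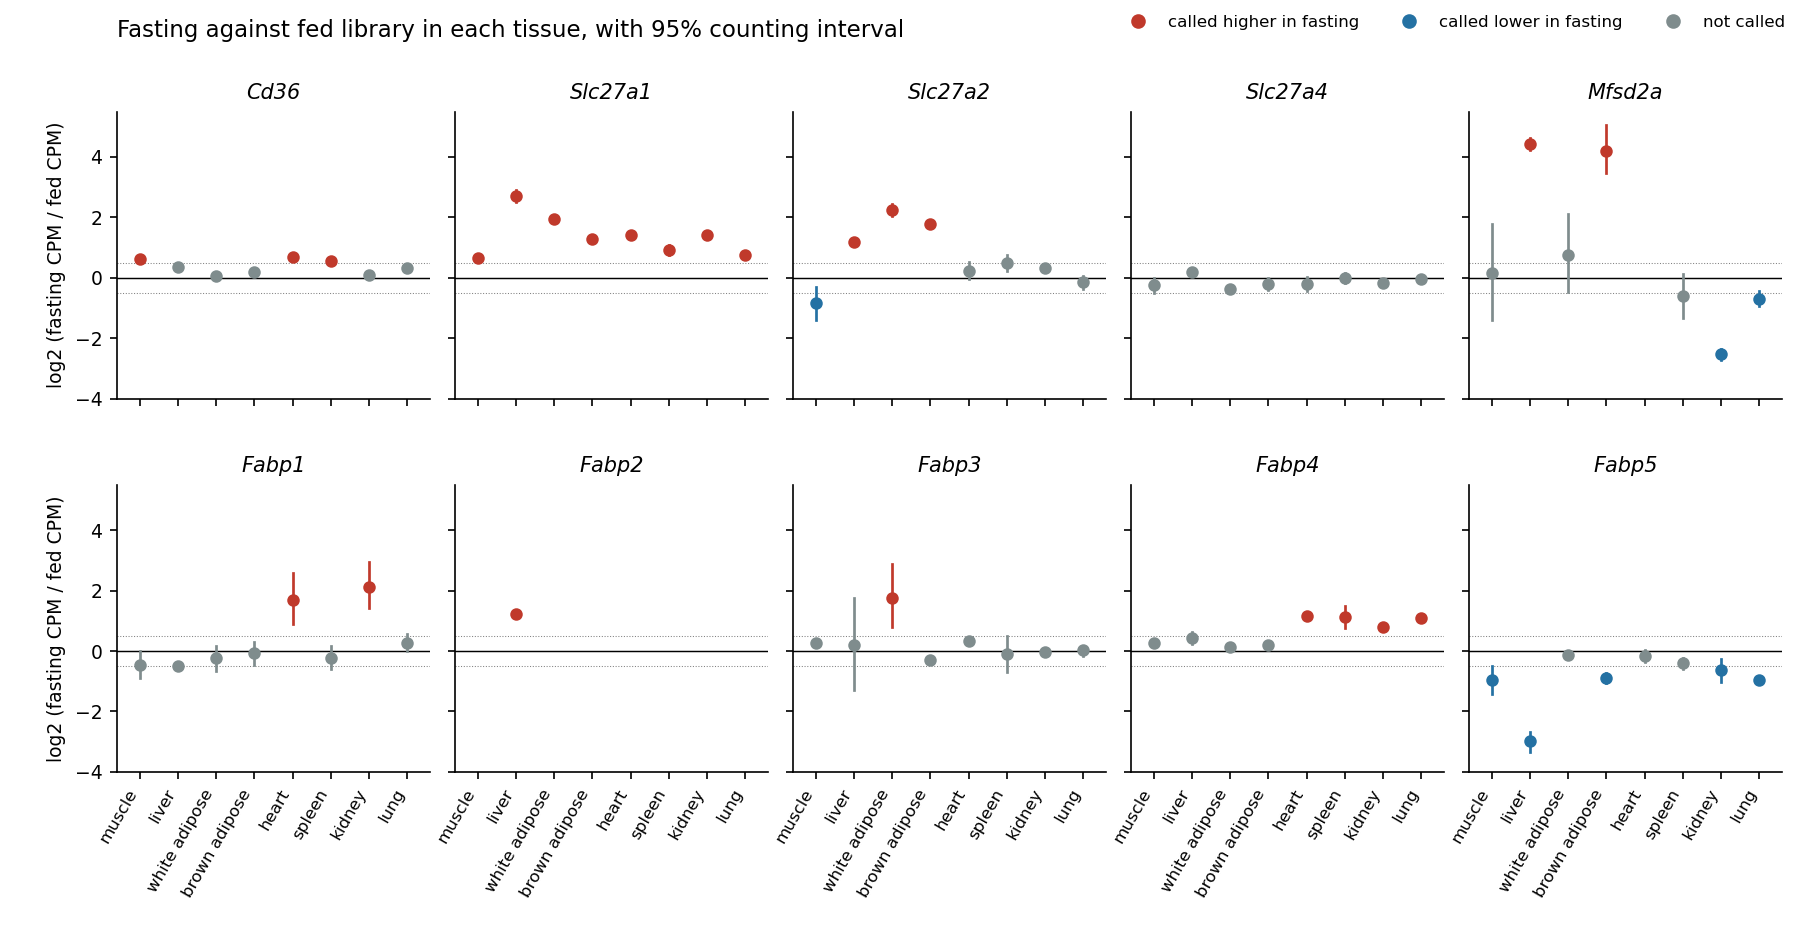
Log2 ratio of fasting to fed CPM (y axis) of each gene in the 8 tissues (x axis), with 95% exact counting intervals as bars, colours for pairs called higher, called lower or not called, and dotted lines at 0.5 and -0.5. Pairs where a library had 0 counts or both had 3 or fewer are left out. Slc27a1 lies above the upper line in all 8 tissues, Slc27a4 between the lines in all 8, and Mfsd2a reaches from -2.53 in kidney to 4.42 in liver.

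Slc27a1 (ENSMUSG00000031808.7, chr8:71568882-71587302, + strand) encodes FATP1, the transport protein of muscle and adipose tissue. Its level was 439 CPM fed and 1696 CPM fasting in white adipose tissue, 192 and 473 CPM in brown adipose tissue, and 157 and 416 CPM in heart. Muscle had 67.4 and 105 CPM, kidney 55.2 and 147 CPM, and lung 37.1 and 62.4 CPM. Spleen had 19.9 CPM fed and 37.4 CPM fasting. In liver, the lowest fed tissue, it went from 9.94 to 65.2 CPM, above the fasting lung and spleen.

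Slc27a1 was called higher in fasting in all 8 tissues, and in all 8 also with TMM factors and with DESeq2 size factors. The largest ratio was that of liver, at 6.56-fold (5.71 to 7.56), followed by white adipose tissue at 3.86-fold (3.78 to 3.94). Kidney (2.67-fold, 2.5 to 2.84), heart (2.65-fold, 2.54 to 2.78) and brown adipose tissue (2.46-fold, 2.36 to 2.57) had ratios whose counting intervals overlap. In white adipose tissue, adipocyte markers went from 23090 to 19920 CPM in sum, with 0 of 8 called higher and 3 lower, namely Plin1 (2021 to 746 CPM), Lep (1142 to 263 CPM) and Retn (879 to 501 CPM), and the kidney marker Lrp2 went from 34.9 to 710 CPM. Of the B cell markers in white adipose tissue, Ighm went from 338 to 76.3 CPM, whereas Cd79b had 1.89 CPM fed and 1.97 CPM fasting. The part of these markers in the Slc27a1 value was not tested. Spleen rose 1.88-fold (1.68 to 2.11), lung 1.68-fold (1.56 to 1.81) and muscle 1.56-fold (1.47 to 1.65). The call in liver was also made by an exact test that assumed a coefficient of variation of 0.4 between pools, and those in liver, white adipose tissue, brown adipose tissue, heart and kidney by one that assumed 0.2.

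Slc27a2 (ENSMUSG00000027359.16, chr2:126552407-126588243, + strand) encodes FATP2, a very long-chain acyl-CoA synthetase of liver and kidney peroxisomes and membranes. It was by far highest in kidney, at 4800 CPM fed and 6009 CPM fasting, and in liver, at 1357 and 3101 CPM. Brown adipose tissue had 230 and 783 CPM and white adipose tissue 9.36 and 44.0 CPM. The remaining 4 tissues were low, between 1.62 and 14.9 CPM in their 8 libraries. Heart had 12.6 and 14.9 CPM, lung 11.5 and 10.4 CPM, spleen 9.10 and 12.8 CPM, and muscle 2.91 and 1.62 CPM (70 and 50 counts). Summed kidney markers were 81.1 CPM in fed heart, 352 CPM in fed lung and 44.9 CPM in fed spleen. In lung 314 CPM of them were Lrp2. Fed muscle had 0.748 CPM and fed kidney 38714 CPM. The part of kidney transcripts in these low Slc27a2 values was not tested.

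Slc27a2 was called higher in fasting in white adipose tissue (4.71-fold, 4.07 to 5.46), brown adipose tissue (3.41-fold, 3.28 to 3.54) and liver (2.29-fold, 2.26 to 2.32). It was called lower in muscle, by 1.80-fold (1.23 to 2.64), a call that was not made with an assumed coefficient of variation of 0.2. In kidney, its main site, the ratio was 1.25 (1.24 to 1.26), and in spleen the log2 ratio of 0.49 became a call of 0.50 with TMM factors and with DESeq2 size factors. White adipose tissue also differed in its summed kidney markers, from 69.3 CPM fed to 750 CPM fasting. Of these, Lrp2 went from 34.9 to 710 CPM, and Umod, the other of the 2 called higher, from 4.38 to 9.04 CPM, whereas Kap had 20.4 CPM fed and 18.2 CPM fasting and Slc34a1 had 5.07 and 6.96 CPM. Vil1, an enterocyte marker with 278 CPM in fed kidney, went from 1.89 to 29.9 CPM in white adipose tissue. The part of these genes in the rise of Slc27a2 in white adipose tissue was not tested.

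Slc27a4 (ENSMUSG00000059316.2, chr2:29802634-29817522, + strand) encodes FATP4, a widely expressed acyl-CoA synthetase of the endoplasmic reticulum. It was the most even of the 10 genes, with levels between 8.27 CPM in fasting muscle and 58.4 CPM in fed kidney. It was called in none of the 8 tissues, and its log2 ratios lay between -0.36 in white adipose tissue and 0.19 in liver. The ratios of spleen (-0.01) and lung (-0.03) turned positive with TMM factors, to 0.01 and 0.05. The 95% counting intervals excluded a log2 ratio of 0 in white adipose tissue (-0.48 to -0.24), kidney (-0.29 to -0.06), brown adipose tissue (-0.39 to -0.01) and liver (0.06 to 0.32).

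Mfsd2a (ENSMUSG00000028655.11, chr4:122946850-122961188, - strand) encodes the sodium-dependent lysophosphatidylcholine symporter. In liver it went from 11.4 CPM fed (262 counts) to 244 CPM fasting (6083 counts). In brown adipose tissue it went from 0.903 CPM (15 counts) to 16.7 CPM (238 counts). Kidney changed the opposite way, from 56.6 CPM (1271 counts) to 9.78 CPM (252 counts). The fed kidney and the fasting liver were thus the highest libraries of each treatment. Lung had 9.81 and 6.10 CPM and spleen 1.63 and 1.08 CPM. White adipose tissue had 9 and 18 counts, muscle 7 and 10, and heart 2 and 3, where no fold is given.

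The ratios of Mfsd2a in liver and brown adipose tissue were the largest rises among the pairs called. It was called higher in fasting in liver (21.4-fold, 18.9 to 24.3) and brown adipose tissue (18.5-fold, 11 to 33.6), and called lower in kidney (5.79-fold lower, 5.06 to 6.66) and lung (1.61-fold lower, 1.35 to 1.92). The calls in liver, brown adipose tissue and kidney were also made by the exact test that assumed a coefficient of variation of 0.4 between pools, and the call in lung was not made with 0.2. In kidney, summed nephron markers went from 38714 to 34863 CPM, with 2 of 8 called lower. In liver, hepatocyte markers went from 109803 to 105782 CPM, and in brown adipose tissue brown adipocyte markers went from 5054 to 4474 CPM. Single genes of these lists moved more than their sums, as Slc34a1 in kidney (5066 to 3266 CPM), Cps1 in liver (6296 to 12589 CPM) and Elovl3 in brown adipose tissue (10.4 to 29.4 CPM), and the part of these cell types in the Mfsd2a values was not tested. In lung, all 6 B cell markers were called lower (368 to 186 CPM in sum), as were all 7 cardiomyocyte markers (1124 to 568 CPM), Myh6 from 529 to 326 CPM and Nppa from 198 to 27.4 CPM among them, while lung epithelium markers went from 26581 to 28056 CPM. Their part in the lung values of Mfsd2a and of Fabp5, which was also lower there, was not tested.

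Fabp1 (ENSMUSG00000054422.7, chr6:71199827-71205023, + strand) encodes the liver fatty acid binding protein. Liver had 3820 CPM fed and 2721 CPM fasting, which was 99.3% of the sum of the 8 fed tissues. The log2 ratio in liver was -0.49 (-0.50 to -0.48) on library totals, just short of the threshold for a call. It was -0.37 with TMM factors and -0.36 with DESeq2 size factors. All other libraries held between 0.846 and 7.59 CPM. Kidney had 0.846 CPM fed (19 counts) and 3.72 CPM fasting (96 counts), and heart had 1.05 CPM (18 counts) and 3.41 CPM (52 counts), and both were called higher in fasting, at 4.4-fold (2.67 to 7.62) and 3.26-fold (1.88 to 5.92).

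Hepatocyte markers moved with Fabp1 in heart, where their sum went from 28.5 to 106 CPM and 7 of 8 were called higher, Alb from 14 to 51.4 CPM and Apob from 7.03 to 21 CPM among them. Their part in the heart value was not tested. In kidney the sum went from 1263 to 1646 CPM, but Alb fell from 32.2 to 7.57 CPM, Cps1 went from 54 counts to 0 and Apob had 1106 CPM fed and 1561 CPM fasting, short of a call. Of the 8 markers, 1 was called higher in kidney (Serpina1c, 31 to 98 counts) and 5 lower, and their part in the kidney value was not tested. The other tissues also held hepatocyte transcripts. In their fed libraries Alb had 60.3 CPM in muscle, 72 CPM in white adipose tissue and 105 CPM in brown adipose tissue. Spleen had 90.2 CPM of Alb and lung 7.62 CPM, against 63761 CPM in liver. The part of such transcripts in the low Fabp1 values outside liver was not tested.

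Fabp2 (ENSMUSG00000023057.5, chr3:122895072-122899506, + strand) encodes the intestinal fatty acid binding protein. Liver was the only tissue with more than 6 counts in a library, at 47.8 CPM fed (1102 counts) and 113 CPM fasting (2824 counts). It was called higher in fasting there, at 2.36-fold (2.2 to 2.54). Both kidney libraries had 0 counts, which allows levels of up to 0.134 CPM fed and 0.116 CPM fasting. Enterocyte markers in liver rose in sum from 178 to 3090 CPM, of which Apoa4 went from 50.7 to 2971 CPM and Anpep from 127 to 119 CPM, while Sis went from 0 to 5 counts and Alpi from 0 to 15. Their part in the Fabp2 value was not tested.

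Fabp3 (ENSMUSG00000028773.8, chr4:130308595-130315463, + strand) encodes the heart fatty acid binding protein. Heart had 2777 CPM fed and 3484 CPM fasting, brown adipose tissue 395 and 322 CPM, and muscle 203 and 244 CPM. Kidney had 51.4 and 50.3 CPM and lung 18.6 and 18.8 CPM, and the other 3 tissues lay between 0.347 and 2.08 CPM. Its log2 ratio was 0.33 (0.31 to 0.35) in heart and 0.26 (0.21 to 0.31) in muscle against -0.30 (-0.35 to -0.24) in brown adipose tissue, all short of a call. It was 0.02 in lung and, in kidney, -0.03 on library totals and 0.04 with TMM factors, where the counting intervals include 0. It was called only in white adipose tissue, from 11 to 44 counts (3.40-fold, 1.73 to 7.29), where cardiomyocyte markers went from 2.70 to 8.79 CPM and skeletal muscle markers from 194 to 254 CPM. The cardiomyocyte sum rose through Tnnt2 (3 to 115 counts) and Tnni3 (26 to 103), whereas Actc1 went from 19 to 9 counts, Myl7 from 7 to 3, Mybpc3 from 8 to 7 and Myh6 from 0 to 4, and Nppa had 0 in both. The skeletal muscle sum rose through Acta1 (38.2 to 97.3 CPM), the only gene called of its 8. In brown adipose tissue, all 8 skeletal muscle markers were called lower (2578 to 1183 CPM). Lung held cardiomyocyte markers at 1124 CPM fed and 568 CPM fasting in sum, against 54804 and 49707 CPM in heart. All 7 were called lower in lung. The part of these markers in the Fabp3 values was not tested. Fabp3 shares 81 exon bases with Zcchc17 and 80 with Gm10570 on the opposite strand, and the processed copy Fabp3-ps1 took at most 76 counts in a library.

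Fabp4 (ENSMUSG00000062515.3, chr3:10204088-10208576, - strand) encodes the adipocyte fatty acid binding protein, which capillary endothelium and macrophages also make. White adipose tissue had 5635 CPM fed and 6208 CPM fasting and brown adipose tissue 5741 and 6627 CPM. Heart had 370 and 831 CPM, muscle 110 and 132 CPM, kidney 46.1 and 80.0 CPM, and lung 28.4 and 60.8 CPM. Liver had 15.8 and 21.2 CPM and spleen 3.80 and 8.26 CPM. Every fasting library was above its fed library, also with TMM factors and DESeq2 size factors, and the ratios were smallest where the gene was highest.

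The calls for Fabp4 were all outside the adipose tissues, in heart (2.25-fold, 2.18 to 2.32), spleen (2.18-fold, 1.69 to 2.82), lung (2.14-fold, 1.98 to 2.32) and kidney (1.74-fold, 1.61 to 1.87). Those in spleen and kidney were not made with an assumed coefficient of variation of 0.2. White adipose tissue had 1.10-fold (1.09 to 1.11) and brown adipose tissue 1.15-fold (1.14 to 1.16). In liver the log2 ratio of 0.42 became 0.55, a call, with TMM factors and with DESeq2 size factors. In heart the defining adipocyte markers were near 0, with Adipoq at 15 counts fed and 4 fasting, Plin1 at 10 and 2 and Lep at 0 in both, and the summed list went from 364 to 730 CPM through Plin4 (359 to 729 CPM). In lung, adipocyte markers rose from 132 to 199 CPM in sum, with 4 of 8 called higher, Adipoq from 9.32 to 13.9 CPM and Cfd from 48.7 to 72.9 CPM. Others of the list fell in lung, Plin1 from 9.51 to 7.37 CPM, Retn from 2.86 to 2.22 CPM and Lep from 28 to 13 counts. Kidney went from 62.9 to 83.9 CPM (2 higher, 2 lower) and spleen from 9.40 to 16.7 CPM (2 higher). Brown adipocyte markers rose in kidney from 2.23 to 9.78 CPM, with 3 of 5 called higher, namely Cidea from 0.936 to 4.89 CPM, Ucp1 from 0.579 to 2.13 CPM and Cpt1b from 0.401 to 2.33 CPM. The same list went from 30.4 to 44.7 CPM in heart (2 of 5 called higher, Ucp1 at 1 count in both libraries), from 9.48 to 7.54 CPM in lung and from 1.94 to 1.26 CPM in spleen. The part of these markers in the Fabp4 values was not tested. Endothelial markers were not called higher in heart, spleen, kidney or lung (0 of 8 in each). In spleen, 2 of 8 macrophage markers were called higher, as given with Cd36. The part of both cell types in the Fabp4 values was not tested.

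Fabp5 (ENSMUSG00000027533.10, chr3:10012548-10016607, + strand) encodes the epidermal fatty acid binding protein, made by many cell types including macrophages, endothelium and adipocytes. Lung had 74.3 CPM fed and 37.8 CPM fasting, white adipose tissue 63.5 and 57.5 CPM, and brown adipose tissue 54.1 and 29.1 CPM. Liver went from 28.0 CPM (646 counts) to 3.53 CPM (88 counts), heart from 26.2 to 23.6 CPM, and spleen from 23.3 to 17.6 CPM. Kidney had 6.19 and 3.96 CPM and muscle 4.19 and 2.17 CPM. Every fasting library was below its fed library, on all 3 scalings, which makes Fabp5 the opposite of Slc27a1 and Fabp4 in direction.

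Fabp5 was called lower in 5 tissues, with the largest ratio in liver, at 7.96-fold lower (6.36 to 10.1), then lung (1.96-fold lower, 1.83 to 2.10), muscle (1.94-fold lower, 1.41 to 2.68), brown adipose tissue (1.86-fold lower, 1.65 to 2.09) and kidney (1.56-fold lower, 1.20 to 2.04). The log2 ratio was -0.41 in spleen, -0.15 in heart and -0.14 in white adipose tissue. Of the 5 calls, liver alone was also made with an assumed coefficient of variation of 0.2 and of 0.4. In muscle, 5 of 8 adipocyte markers were called lower as well, Adipoq from 16.1 to 6.79 CPM and Cfd from 56.4 to 28.5 CPM, and their part in the muscle value was not tested. In liver, macrophage markers went from 262 to 231 CPM (1 of 8 called higher, 0 lower) and endothelial markers from 262 to 230 CPM (0 of 8 called). The part of both cell types in the liver value was not tested.

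Which of the genes followed here led in each family was compared per kilobase of gene length, because counts rise with length. With the deposited lengths, Fabp1 was 99.1% of the 5 Fabp genes in fed liver, Fabp4 97.9% in fed white adipose tissue and 71.5% in fed brown adipose tissue, and Fabp3 97.4% in fed heart, 88.5% in fed muscle and 82.2% in fed kidney. Each of these stayed the leading Fabp gene in fasting. In brown adipose tissue Fabp3 came next, at 26.8% fed and 20.7% fasting. Among the 3 Slc27 genes, Slc27a2 held 98.3% in fed kidney, 97.3% in fed liver and 60.4% in fed brown adipose tissue, and Slc27a1 84.5% in fed white adipose tissue, 79.4% in fed muscle and 75.5% in fed heart. Slc27a1 gained in fasting in those 3 tissues, to 93.4%, 88.6% and 89.2%. Slc27a5, another Slc27 gene, is not in these shares and had 826 CPM in fed and 784 CPM in fasting liver.

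The deposited length of Fabp4 is 4489 bases in 1 block, that is its whole locus including introns, against 896 bases for its longest coding transcript in GENCODE, and that of Fabp5 is 3567 against 987 bases. Reads from their introns are therefore counted, and their level per kilobase is understated. Dividing the same counts by transcript length can overstate it, by an amount that was not measured. The deposited length of Slc27a1 is 5835 bases in 14 blocks against 2795 bases for its longest coding transcript, which also lowers its level per kilobase. With transcript lengths, a comparison added after the data were seen, the leading gene was the same in 25 of 32 cases. Fabp4 rose to 92.1% in fed brown adipose tissue and 32.2% in fed muscle. Fabp5 led in place of Fabp1 in both spleen libraries (59.5% fed) and in place of Fabp3 in fed lung (53.9%), and Fabp4 in place of Fabp3 in fasting lung (48.0%) and fasting kidney (55.4%). Slc27a1 led in place of Slc27a4 in fed spleen (45.6%) and fed lung (52.8%). Summed per kilobase of transcript, the Slc27 genes were higher in fasting in all 8 tissues, by a log2 value of 0.34 in kidney to 1.87 in white adipose tissue, whereas the Fabp genes ranged from -0.47 in liver to 0.44 in heart.

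**Figure D3:**
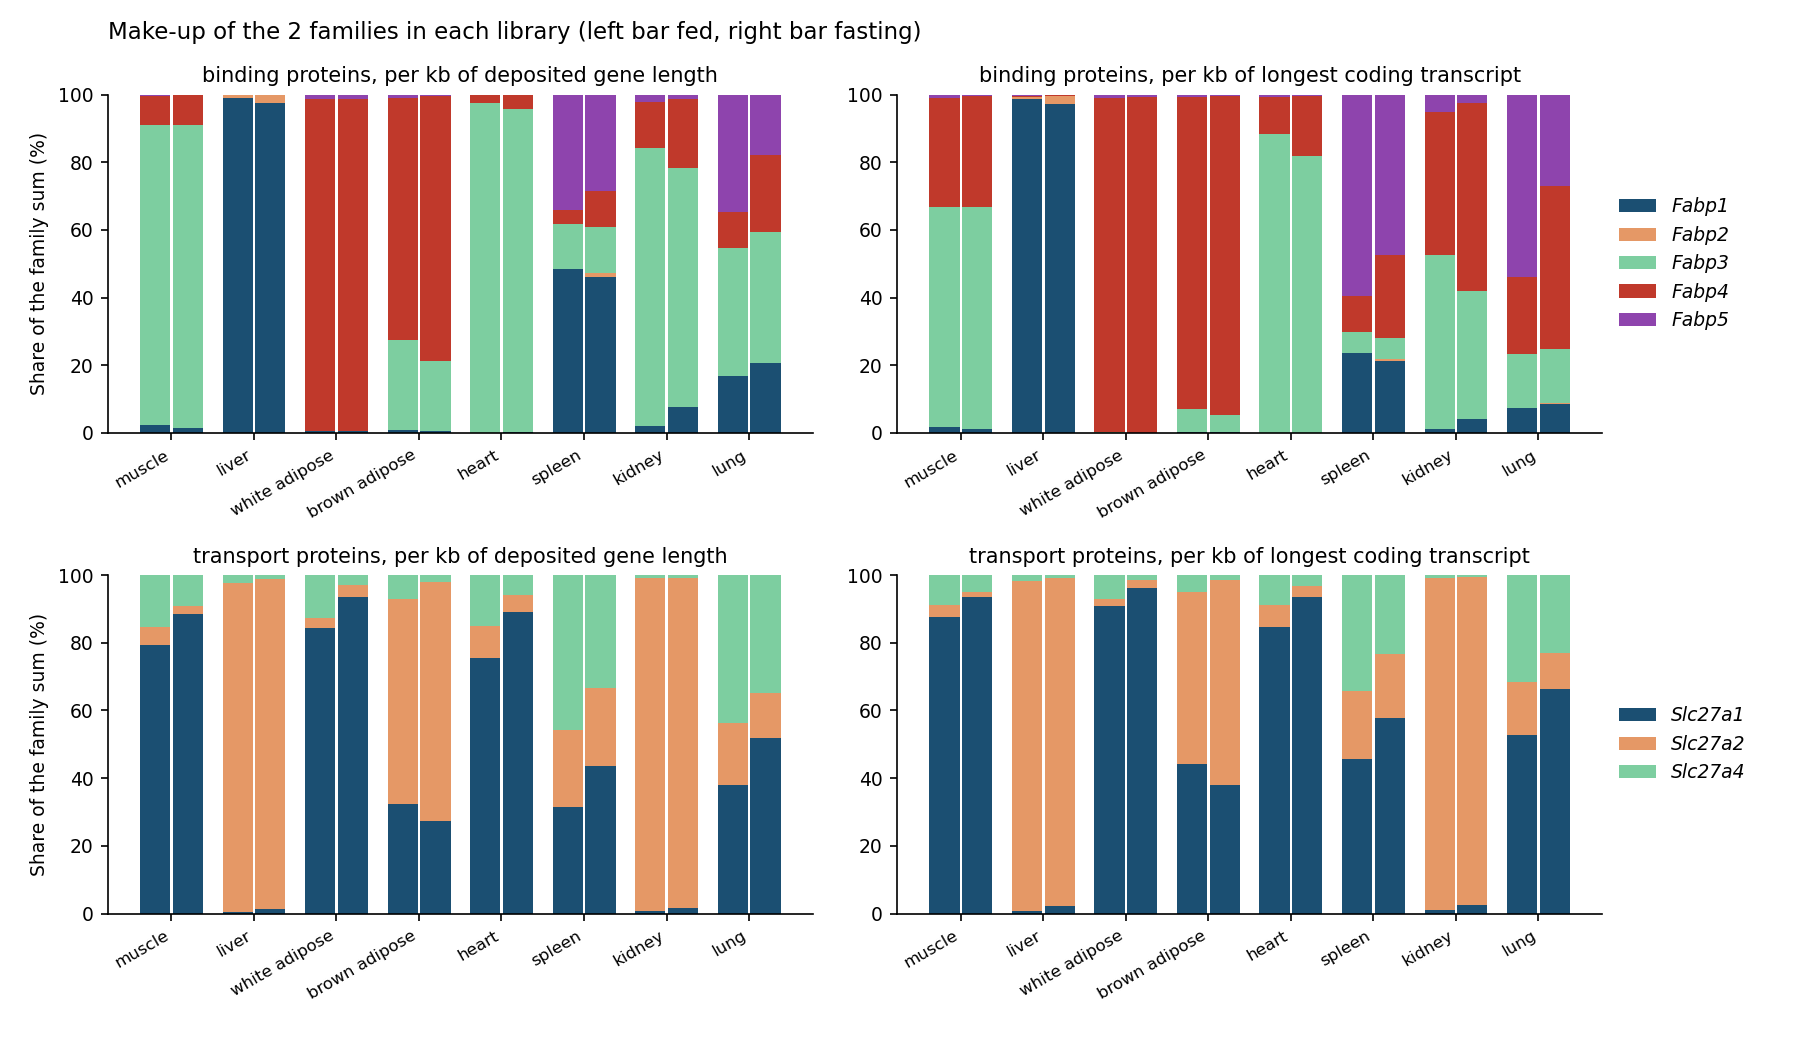
Share of each gene (y axis, %) in the sum of the 5 Fabp genes (top) and of the 3 Slc27 genes (bottom) in each tissue, left bar fed and right bar fasting, per kilobase of the deposited gene length (left) and of the longest coding transcript (right). Liver, both adipose tissues, heart and muscle keep their leading Fabp gene under both lengths, while spleen, lung and fasting kidney do not.

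The 8 tissues were then fitted together with tissue as a block (edgeR quasi-likelihood test, adjusted p under 0.05 over 23580 genes, 7 residual degrees of freedom). The tissues come from the same 2 pools of 3 mice, so that this fit measures agreement between tissues and not between animals. It called 1 of the 10 genes, against 1.87% of all genes tested (1.03% higher and 0.840% lower). The count was 2 without liver and 3 without white adipose tissue, and none of the 10 was called with no tissue block. Slc27a1 was higher in fasting by a log2 value of 1.41 ± 0.20 (SE, n = 8 tissues, edgeR adjusted p = 0.0113), and higher in 8 of 8 tissues. Fabp4 had 0.68 ± 0.16 (adjusted p = 0.052 in edgeR) and Cd36 0.40 ± 0.11 (adjusted p = 0.0919 in edgeR), both higher in 8 of 8 tissues on library totals, and Cd36 in 7 of 8 with TMM factors.

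Fabp5 had -0.81 ± 0.25 (edgeR adjusted p = 0.114) and was lower in 8 of 8. Fabp2 had 1.26 ± 0.36 (edgeR adjusted p = 0.102), a value that rests on liver and on tissues with at most 6 counts. Slc27a2 had 0.75 ± 0.29 (edgeR adjusted p = 0.192), and Mfsd2a, whose tissues moved both ways, 0.77 ± 0.94 (edgeR adjusted p = 0.713). Fabp1, Fabp3 and Slc27a4 had 0.22 ± 0.27, 0.21 ± 0.15 and -0.09 ± 0.08, with edgeR adjusted p of 0.712, 0.505 and 0.629. Of the 10 genes, 6 had an unadjusted p under 0.05, against 18.6% of all genes tested, and the median log2 value was 0.54 over the 10 genes and -0.01 over all genes tested.

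**Figure D4:**
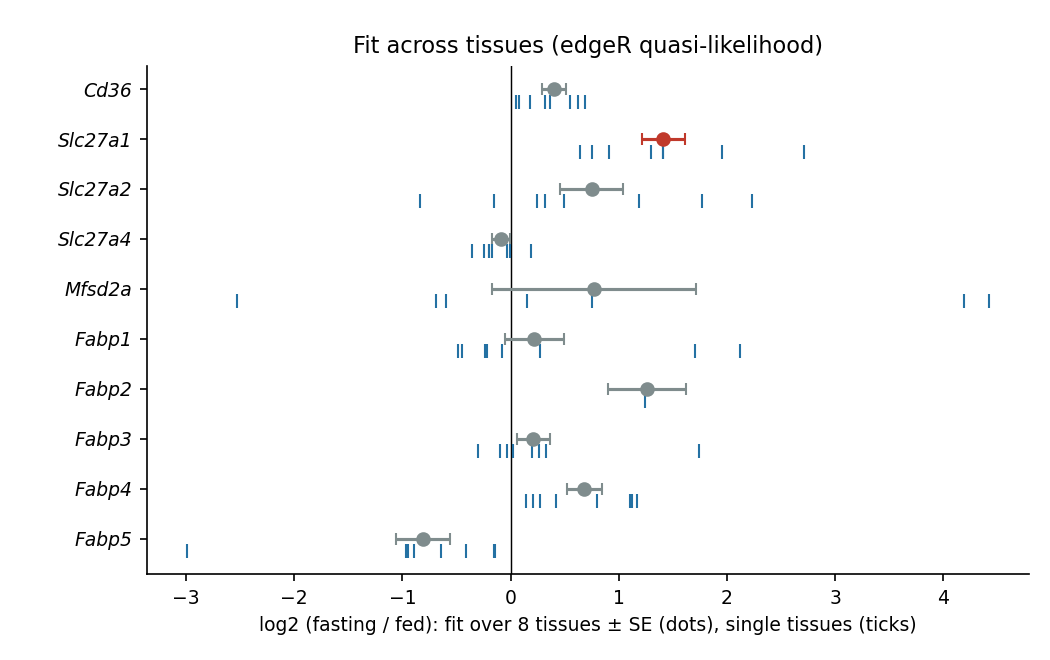
Log2 ratio of fasting to fed for each gene from the edgeR fit over 8 tissues (dots with ± SE, red where called) and from single tissues (blue ticks, pairs with too few counts left out). The ticks, on library totals, of Slc27a1, Cd36, Fabp4 and Fabp5 lie on 1 side of 0 (that of Cd36 in white adipose tissue crosses it with TMM factors), and those of Mfsd2a spread from -2.53 to 4.42.

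Genes that work beside these were read from 4 lists. Of 18 genes of acyl-CoA synthesis and binding, 2 were called higher in the edgeR fit and 0 lower (1.87% of all genes were called), with 6 at an unadjusted p under 0.05 (18.6% of all genes) and a median log2 value of 0.02. The 2 were Acsl1, the main acyl-CoA synthetase of liver and fat (0.66 ± 0.12, edgeR adjusted p = 0.0292), and Acss3, a mitochondrial short-chain synthetase (0.84 ± 0.17, edgeR adjusted p = 0.036). Without muscle, brown adipose tissue, heart or lung, or without both adipose tissues, 0 of the list were called, and without liver or kidney 1. Acsl1 was highest in fasting brown adipose tissue, at 4182 CPM. The lowest log2 values in that list were those of Acss2, the cytosolic acetyl-CoA synthetase (-0.65), and Acsl5 (-0.45), and Dbi, the acyl-CoA binding protein with the highest level per length in the list, had -0.35, none of them called in the fit.

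Of 17 genes of uptake at the vessel wall and plasma membrane, 2 were called higher and 0 lower (1.87% of all genes were called), 7 had an unadjusted p under 0.05 (18.6% of all genes), and the median log2 value was -0.15. Angptl4, the fasting-induced inhibitor of lipoprotein lipase, had 2.25 ± 0.40 (edgeR adjusted p = 0.024) and was called in 7 tissues. Gpihbp1, which anchors lipoprotein lipase on capillaries, had 0.54 ± 0.09 (edgeR adjusted p = 0.02). Without muscle or without lung 0 of the list were called, and without brown adipose tissue, or without both adipose tissues, 1. Lipoprotein lipase itself (Lpl) had 0.13 ± 0.20, and was called higher in brown adipose tissue and lung and lower in kidney. The caveolar gene Cav1 had -0.28, Ehd2 -0.40 and Vegfb -0.45, none called in the fit.

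Of 13 genes of lysophospholipid transport and acylation, 1 was called higher and 0 lower (median 0.09, 1 with an unadjusted p under 0.05), against 1.87% and 18.6% of all genes. This was Mfsd2b, the sphingosine-1-phosphate exporter of blood cells and nearest relative of Mfsd2a in the list (0.69 ± 0.11, edgeR adjusted p = 0.0152), with 16.3 CPM in fasting spleen, the library where erythroid markers were also higher, and its call was lost without brown adipose tissue. Spns2 had 0.44 and the acyltransferases Lpcat4, Lpcat2 and Lpcat1 had -0.24, -0.11 and -0.09, and Abca1 had 0.13, none called in the fit. Within tissues, Spns2 was called higher in muscle and white adipose tissue and lower in lung. None of the 13 was called in liver or in brown adipose tissue, where Mfsd2a had its largest rises, against 14.0% and 13.0% of all genes.

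Of 11 other SLC27 and FABP genes, 6 had enough counts to be tested (median -0.17). Of these, 0 were called by edgeR in either direction and 0 had an unadjusted p under 0.05, against 1.87% and 18.6% of all genes. With 6 genes, these counts are near those shares. DESeq2 also called 0 of them. Slc27a5, the bile acid and very long-chain synthetase of liver, had -0.02, with 826 CPM in fed and 784 CPM in fasting liver. Slc27a6 had -0.31, Fabp7 0.12 and Fabp12 -0.26. Crabp1, a retinoic acid binding protein of the same fold, was not tested and went from 1 to 226 counts in white adipose tissue. DESeq2's Wald test on the same model, given with the other settings in the closing section, called more of the 10 genes.

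For each gene, the 2 genes whose levels were most alike over the 16 libraries were sought among 14903 genes of at least 10 CPM in a library (Pearson's r of log2(CPM + 1), n = 16, libraries that share 8 tissues and 2 pools). Cd36 was nearest to Lzts2 (r = 0.976) and Adamts9 (0.959), Slc27a1 to Cd300lg (0.927) and Pnpla2 (0.898), Slc27a2 to Nit1 (0.968) and Kng2 (0.967), and Slc27a4 to Jmjd8 (0.969) and Pttg1ip (0.968). Mfsd2a was nearest to Brap (0.907) and Glt1d1 (0.895), both highest in fasting liver (395 and 74.8 CPM). Fabp1 was nearest to Tmprss6 and Serpind1 (0.989 each), Fabp2 to Cyp3a59 and Inhbe (0.999 each), Fabp3 to Cox7a1 (0.961) and Vdac2 (0.953), Fabp4 to Pnpla2 (0.967) and Ebf2 (0.958), and Fabp5 to Smurf1 (0.904) and Grk5 (0.9). Pnpla2, the adipose triglyceride lipase, was the only gene near 2 of the 10. Genes found mainly in 1 tissue, as the liver genes near Fabp1 and Fabp2, reach a high r from that tissue alone, and 7 of the 20 pairs (19 different genes) were found again in the 8 fed libraries.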

How the data were processed

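RNA of 16 pooled tissue samples was sequenced. Per the study's methods, reads were trimmed (fastp 0.23.2), inspected (FastQC 0.11.8) and mapped on the GRCm38 build by HISAT2 2.2.1.0. Gene counts came from featureCounts of Subread 2.0, using GENCODE mouse release 24. The authors deposited raw counts per gene, not normalized, with each gene's coordinates and its length in bases as other columns. The libraries were strand-specific per the labels, but whether counting used strand, and whether reads or pairs were counted, is not given in the sources used here, so reads of overlapping genes may be shared.

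Symbols came from GENCODE release 21, where 55144 of 55385 identifiers matched without their version. CPM is the count scaled to a common library total (14245178 to 36069968). Intervals are exact (95%) and cover counting error only, since each tissue and treatment has 1 library. PCR reads are not independent molecules, so that the intervals may be too narrow even for this error. Each tissue was called on the log2 ratio (pseudocount 0.01 CPM, threshold 0.5) and a two-sided Fisher's exact test (0.01). All tissues were fitted in edgeR 4.0.16 (R 4.3.3; TMM, low-count filter, quasi-likelihood, tissue as block, Benjamini-Hochberg adjustment over 23580 genes; DESeq2 1.42.0 as alternative). Other values were computed in Python 3.11.15 with numpy 2.4.6, pandas 2.3.3 and scipy 1.17.1 and drawn with matplotlib 3.10.9. Both tests were tested on simulated data. The genes, lists and tests were chosen with earlier results of these data known. Named beside the 10 genes are the 2 most alike in level and, per list, the 2 largest rises, 2 largest falls and 2 highest levels. Marker genes beyond the 2 highest of a list were chosen after their values were seen.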

Additional observations from a re-analysis of the deposited data

Results flagged for a closer look

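Mfsd2a was called in opposite directions in different tissues, with log2 ratios of fasting to fed of 4.42 in liver and 4.19 in brown adipose tissue against -2.53 in kidney and -0.69 in lung. Slc27a2 had 1.19 in liver, 2.23 in white adipose tissue and 1.77 in brown adipose tissue against -0.84 in muscle, where it rests on 70 and 50 counts. With 1 library per tissue and treatment, these differences between tissues were not tested.

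Among the 8 tissues, 1 stood far from the others for 2 genes. Fabp3 had 1.74 in white adipose tissue, from 11 and 44 counts, and Fabp5 had -2.99 in liver, from 646 and 88 counts. Chance singles out a value in about 1 in 20 such groups.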

How the results depend on the processing

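All 32 calls within tissues were held with a pseudocount of 1 CPM, TMM factors, DESeq2 size factors, library totals without the 10 highest genes, adjusted Fisher p and a minimum of 1 CPM. With a log2 ratio above 1 in size, 19 were held, leaving 0 in muscle, 1 in spleen, 3 in kidney, 1 in lung, 3 of 4 in brown adipose tissue and heart, and all in liver and white adipose tissue. Where pools were taken to vary with a coefficient of variation of 0.2, 18 were held, leaving 0 in muscle and spleen and as many as with the former setting elsewhere (3 in kidney, 1 in lung). With 0.4, 5 were held, leaving 3 in liver, 1 in brown adipose tissue, 1 in kidney and 0 in muscle, white adipose tissue, heart, spleen and lung. The fit over tissues called 1 of the 10 genes, 2 with library totals alone, 2 with no filter on low counts, 2 without both adipose tissues, 4 with DESeq2's Wald test, 0 with no tissue block, and 1 to 3 in leave-one-out fits (2 without liver, 3 without white adipose tissue). Slc27a1 was called in each of these fits (adjusted p 1.62e-08 to 0.0373) except with no tissue block (adjusted p = 1), and Fabp4, Fabp5 and Cd36 were the others called by DESeq2. The acyl-CoA list had 2 called, 0 with no tissue block or without both adipose tissues, and 0 to 2 in leave-one-out fits (0 without muscle, brown adipose tissue, heart or lung, 1 without liver or kidney). The vessel wall list had 2, 0 with no tissue block, 1 without both adipose tissues, and in leave-one-out fits 0 without muscle or lung and 1 without brown adipose tissue. The lysophospholipid list had 1, and 0 with no tissue block or without brown adipose tissue. Over all genes the fit called 441, 677 with no filter, 1832 with DESeq2, 156 without both adipose tissues, 1 with no tissue block, and 81 (without brown adipose tissue) to 473 in leave-one-out fits. The log2 value of Mfsd2a ranged from -0.03 (without liver) to 1.68 (without kidney) in leave-one-out fits, and that of Fabp1 became -0.36 with no tissue block. The cause of these changes was not tested. Spearman's rho kept 3 of the 20 pairs of genes most alike in level and the 8 fed libraries 7. The tissue block of the fit pairs fed with fasting within each tissue, and beyond it no paired analysis was possible because each tissue and treatment has 1 library and no replicate number. Without replicate pools, depth sets only the counting error.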
